A study of Homo sapiens with 12 samples.

Results

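PPARA, the gene of the fatty acid receptor PPARα, and 4 genes known as its targets in liver, CPT1A, VNN1, CIDEC and ACSL1, were followed across all arrays of a β-catenin knockdown experiment in the human cell line HepG2, which was established from a liver tumour. These 5 genes, of 14884 named genes on the arrays, were chosen by name and with their levels in the 4 groups already known. Their levels and differences are therefore given as a description, with no test. In HepG2 the allele of the β-catenin gene CTNNB1 that lost exon 3 gives a truncated, stable protein beside the full-length one, so every group holds both forms unless an siRNA lowers them. The cells were sampled 120 h after 1 of 4 siRNAs. The siRNA sißCat-WT (here si-WT) is directed at the full-length form, sißCat-mut (si-mut) at the truncated form, sißCat-both (si-both) at both forms, and siCtrl is the control. Each group held 3 arrays, 12 in all, and all come from the same cell line. The labels do not say whether the replicates came from separate cultures, and the p-values below therefore cover the spread among these arrays alone, part or all of which may be technical. The targeted gene was not analysed here, so the knockdown rests on the labels.

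PPARα is a nuclear receptor that binds DNA as a dimer with a retinoid X receptor and is activated by fatty acids and their derivatives. In hepatocytes it is best known for the fasting response, in which it raises the uptake, activation and oxidation of fatty acids and the making of ketone bodies. Its targets act at different steps. ACSL1 joins long-chain fatty acids to coenzyme A, CPT1A moves the acyl group into the mitochondrion, CIDEC is a protein of the lipid droplet surface, and VNN1 is a pantetheinase that releases pantothenate, the precursor of coenzyme A.

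The arrays gave 1 probe set for each of the 5 genes, with values as log2 intensities. The medians over all probe sets were 4.71 to 4.79, and levels near or below these lie close to the floor of the array, where differences are compressed. Within a group, pairs of arrays had r = 0.994 to 0.997 over genes, which are not independent replicates. The 8 measured of 10 hepatocyte markers averaged 12.29 to 12.39 on the si-WT arrays and 13.09 to 13.15 on the si-mut arrays. They averaged 13.05 to 13.09 on the si-both arrays and 12.56 to 12.60 on the siCtrl arrays. In limma's test 3 of the 8 fell after si-WT, 7 rose after si-mut and 8 rose after si-both. Of all genes 4.97% fell after si-WT, 12% rose after si-mut and 15.5% rose after si-both. The part of the hepatocyte markers in the differences below was not tested. The 3 measured of 8 stromal markers averaged 3.73 to 3.98 and the 3 measured of 5 endothelial markers 3.99 to 4.46 over all arrays, near the floor. Of 7 immune markers 3 were measured, and they did not move together. CD14 averaged 5.98 after si-WT, 5.64 after si-mut and 6.17 after si-both, against 5.47 after siCtrl. CD68 averaged 9.86 after si-WT, 10.51 after si-mut and 10.31 after si-both, against 10.03 after siCtrl. LYZ averaged 12.68 after si-WT, 12.34 after si-mut and 11.60 after si-both, against 12.72 after siCtrl. In limma's test 1 of the 3 was higher after si-WT, and 1 was higher and 1 lower after si-mut and after si-both. Of all genes 5.2% were higher after si-WT. After si-mut 12% were higher and 13.6% lower, and after si-both 15.5% were higher and 18.1% lower. The part of the immune markers in the differences below was not tested either.

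The bases before the start of transcription are shown for the 4 genes with a RefSeq promoter entry (PPARA, ACSL1, CPT1A and CIDEC), because these genes were all higher after si-mut and si-both than after siCtrl. Each run is the 250 bases before the most upstream start in RefSeq, build GRCh38.p14, at chr22:46150276-46150525 on the plus strand for PPARA, and on the minus strand at chr4:184825969-184826218 for ACSL1, chr11:68844278-68844527 for CPT1A and chr3:9880254-9880503 for CIDEC. Capitals mark the GC box GGGCGG on either strand, and neighbouring boxes may overlap.
PPARA: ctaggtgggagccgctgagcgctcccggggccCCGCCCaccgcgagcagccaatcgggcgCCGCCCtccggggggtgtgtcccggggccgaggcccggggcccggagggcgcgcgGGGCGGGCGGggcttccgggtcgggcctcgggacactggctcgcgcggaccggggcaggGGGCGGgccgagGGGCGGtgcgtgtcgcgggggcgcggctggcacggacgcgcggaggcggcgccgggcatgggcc
ACSL1: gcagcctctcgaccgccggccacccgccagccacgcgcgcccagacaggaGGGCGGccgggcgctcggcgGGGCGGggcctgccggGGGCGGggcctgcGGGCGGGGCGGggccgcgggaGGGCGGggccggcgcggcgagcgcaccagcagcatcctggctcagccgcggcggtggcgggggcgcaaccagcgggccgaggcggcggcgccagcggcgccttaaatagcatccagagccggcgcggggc
CPT1A: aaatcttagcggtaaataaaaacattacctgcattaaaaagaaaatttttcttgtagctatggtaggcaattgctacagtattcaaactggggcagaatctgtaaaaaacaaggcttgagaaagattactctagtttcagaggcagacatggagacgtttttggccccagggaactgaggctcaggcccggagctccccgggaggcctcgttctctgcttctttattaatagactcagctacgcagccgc
CIDEC: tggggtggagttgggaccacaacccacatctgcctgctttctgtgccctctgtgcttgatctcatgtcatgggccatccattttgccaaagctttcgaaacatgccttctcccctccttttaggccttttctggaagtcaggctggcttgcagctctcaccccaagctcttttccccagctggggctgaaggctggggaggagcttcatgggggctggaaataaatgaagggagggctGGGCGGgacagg

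The windows of PPARA and ACSL1 were GC-rich, with 84.4% and 83.6% G or C and 41 CG pairs each, more than 98.3% of 27305 promoters. The CPT1A window had 44.4% G or C and 7 CG pairs, and the CIDEC window 56.4% and 2 CG pairs, against a median of 10 over all promoters. The GC box occurred 6 times in the PPARA window, 6 times in that of ACSL1, once in that of CIDEC and not in that of CPT1A. Of all promoters 42.2% hold at least 1. The direct repeat bound by PPAR and retinoid X receptors, searched on both strands as 2 copies of AGGTCA with 1 base of any kind between them, was found in 0 of these 4 windows and in 0.0183% of all promoters. A single AGGTCA, which is part of that repeat, was in 0 of the 4 windows and in 12.2% of promoters. The core bound by TCF/LEF factors, the DNA-binding partners of β-catenin, searched as CTTTGAT, was in 0 of the 4 and in 2.3% of promoters. These letters in these windows are all that was searched. Only the most upstream start of each gene was used. The transcripts measured may begin at another start, whose sequence was not examined.

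PPARA itself was lower after si-WT and higher after si-mut and si-both than after siCtrl. Its log2 level was 7.16, 6.98 and 7.02 on the si-WT arrays, 8.51, 8.61 and 8.51 on the si-mut arrays, 9.02, 8.89 and 9.23 on the si-both arrays, and 7.69, 7.78 and 7.48 on the siCtrl arrays. The 4 groups did not overlap, in the order si-WT, siCtrl, si-mut, si-both. Against siCtrl the log2 difference was -0.60 ± 0.10 after si-WT, a 1.51-fold lower level, 0.89 ± 0.10 after si-mut, a 1.85-fold higher level, and 1.39 ± 0.10 after si-both, a 2.62-fold higher level (SE, n = 3 arrays per group). Between si-both and si-WT the receptor gene differed by 1.99 ± 0.10 on the log2 scale, a 3.97-fold higher level after si-both.

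CPT1A, the carnitine transferase that sets the entry of long-chain fatty acids into mitochondria, was high in both groups in which the truncated form was targeted. Its log2 level was 8.58, 8.53 and 8.68 after si-WT, 9.89, 9.94 and 9.84 after si-mut, 10.17, 10.25 and 10.34 after si-both, and 8.33, 8.53 and 8.35 after siCtrl. The si-mut and si-both arrays lay well above the others, whereas the lowest si-WT array and the highest siCtrl array both read 8.53. The difference from siCtrl was 0.19 ± 0.08 after si-WT, 1.49 ± 0.08 after si-mut and 1.85 ± 0.08 after si-both (log2, SE), or 1.14-fold, 2.81-fold and 3.61-fold higher. CPT1A thus differed from PPARA after si-WT, where PPARA was lower and CPT1A was at or slightly above the control level.

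ACSL1, which activates long-chain fatty acids for oxidation or lipid synthesis, followed the same order as CPT1A. Its log2 level was 9.53, 9.56 and 9.41 after si-WT, 10.13, 10.08 and 9.78 after si-mut, 10.73, 10.59 and 10.86 after si-both, and 9.20, 9.41 and 9.21 after siCtrl. The si-both arrays were the highest and did not overlap the si-mut arrays, while the lowest si-WT and the highest siCtrl array both read 9.41. The difference from siCtrl was 0.22 ± 0.10 after si-WT, 0.72 ± 0.10 after si-mut and 1.45 ± 0.10 after si-both (log2, SE), the last being 2.73-fold higher. Between si-both and si-mut it was 0.73 ± 0.10, against 0.36 ± 0.08 for CPT1A and 0.50 ± 0.10 for PPARA.

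CIDEC, which promotes the growth of lipid droplets, was lowest after si-WT and highest after si-mut. Its log2 level was 5.70, 5.28 and 5.95 after si-WT, 8.22, 7.94 and 7.94 after si-mut, 7.28, 7.11 and 7.23 after si-both, and 6.74, 6.68 and 6.84 after siCtrl. No 2 groups overlapped, and si-both stood between siCtrl and si-mut. The difference from siCtrl was -1.11 ± 0.14 after si-WT, 1.28 ± 0.14 after si-mut and 0.45 ± 0.14 after si-both (log2, SE), which is 2.16-fold lower, 2.42-fold higher and 1.37-fold higher. Between si-mut and si-WT CIDEC differed by 2.39 ± 0.14 on the log2 scale, a 5.24-fold higher level after si-mut.

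VNN1 stood clearly above the floor in a single group, si-mut. Its log2 level was 4.20, 3.66 and 4.002 after si-WT, 7.24, 7.55 and 8.20 after si-mut, 4.49, 4.70 and 5.08 after si-both, and 4.11, 4.35 and 4.10 after siCtrl. Every si-mut array lay more than 2 log2 units above every other array, the si-WT and siCtrl arrays overlapped, and the si-both arrays were just above both. The log2 difference from siCtrl was -0.23 ± 0.21 after si-WT, 3.48 ± 0.21 after si-mut and 0.57 ± 0.21 after si-both (SE). With the siCtrl level near the floor, the 11.1-fold higher level after si-mut is uncertain in size. VNN1 was 2.91 ± 0.21 lower on the log2 scale after si-both than after si-mut, although both siRNAs are directed at the truncated form. The spread among the si-mut arrays was also wide, with an SD of 0.49, against 0.14 among the siCtrl arrays.

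**Figure D1:**
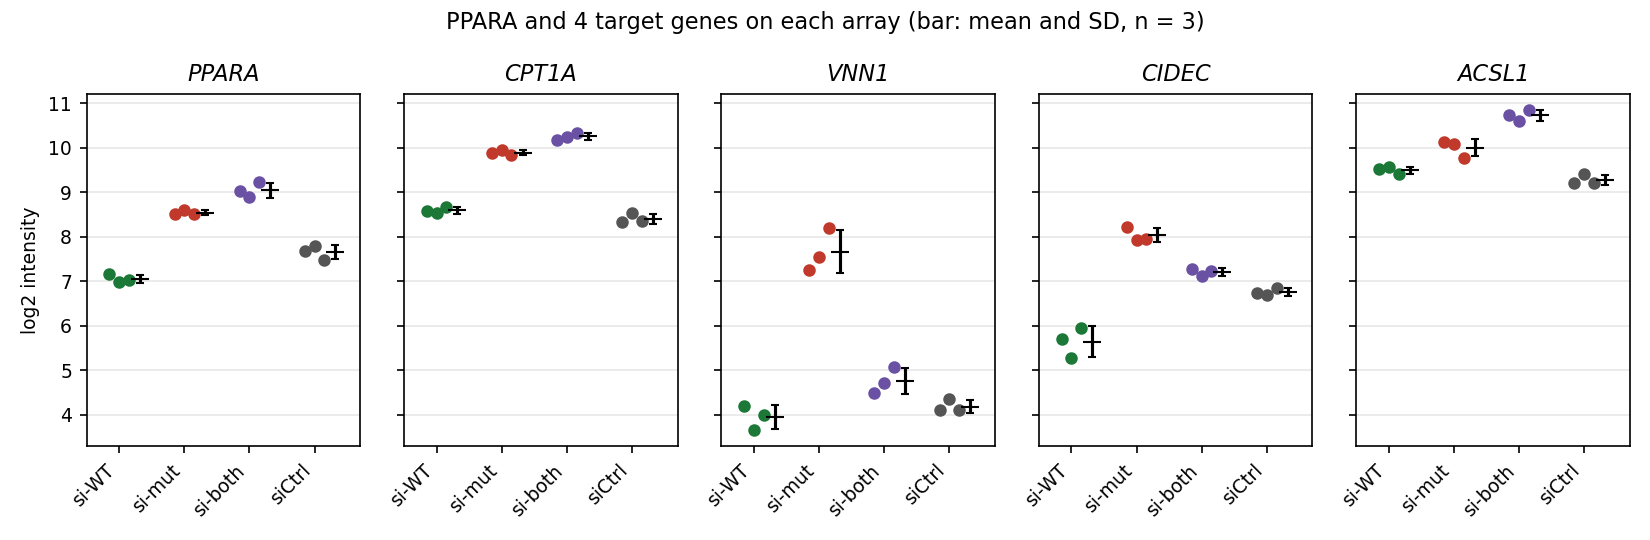
Log2 intensity (vertical axis) of the 5 genes on each of the 12 arrays, with the mean and SD of each group of 3 beside the points. PPARA, CPT1A and ACSL1 are highest after si-both, while CIDEC and VNN1 are highest after si-mut.

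Set side by side, the comparisons with siCtrl share the control arrays. After si-WT the arrays of 2 of the 5 genes, PPARA and CIDEC, lay wholly below the controls and those of 2, CPT1A and ACSL1, wholly above by a narrow margin, where 14.8% and 15.5% of all genes did so. After si-mut and after si-both the arrays of all 5 genes lay above the controls, where 20% and 20.7% of all genes did. In either direction 30.3%, 40.7% and 43.8% of all genes had arrays apart from the controls in the si-WT, si-mut and si-both groups, and 20.6% and 23.1% lay below them after si-mut and si-both. Between the knockdowns, all 5 genes were higher on every array after si-mut than after si-WT, as were 20.2% of all genes (23% lower, 43.2% either way), and all 5 were higher after si-both than after si-WT, as were 20.2% (24.1% lower, 44.3% either way). After si-both against si-mut PPARA, CPT1A and ACSL1 were higher on every array, as were 16.2% of all genes, and VNN1 and CIDEC were lower, as were 17.4% (33.6% either way). The 5 genes were chosen from these values, so nothing is read from these counts.

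**Figure D2:**
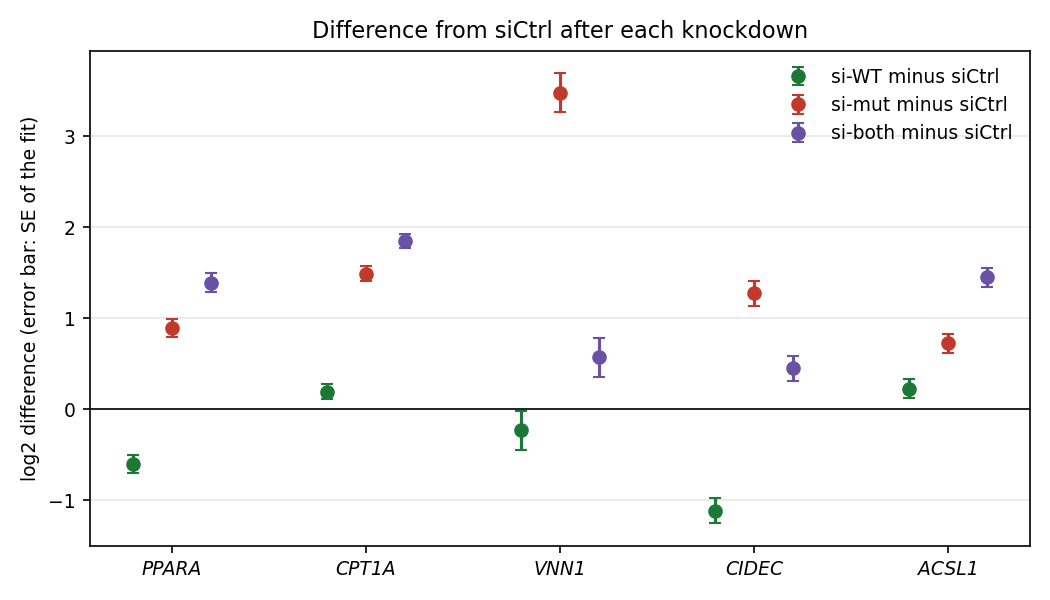
Log2 difference from siCtrl (vertical axis) of each gene for the 3 knockdowns, with the SE of the fit. After si-WT the differences run from -1.11 for CIDEC to 0.22 for ACSL1, and after si-mut from 0.72 for ACSL1 to 3.48 for VNN1.

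The joint knockdown could also be set beside the sum of the single ones, on the log2 scale. For PPARA the si-both difference from siCtrl was 1.39, where the si-WT and si-mut differences summed to 0.29, a departure of 1.0997 ± 0.14 (SE). The lower level of PPARA after si-WT was thus not seen when the truncated form was targeted as well. ACSL1 departed in the same direction, with 1.45 measured and 0.95 summed, a departure of 0.50 ± 0.15. CPT1A, with 1.85 measured and 1.68 summed, and CIDEC, with 0.45 and 0.16, departed by 0.17 ± 0.11 and 0.29 ± 0.20. VNN1 went the other way, with 0.57 measured and 3.25 summed, a departure of -2.67 ± 0.30. The siRNAs differ in sequence and their efficiency was not measured here, so a departure and an unequal knockdown cannot be told apart.

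**Figure D3:**
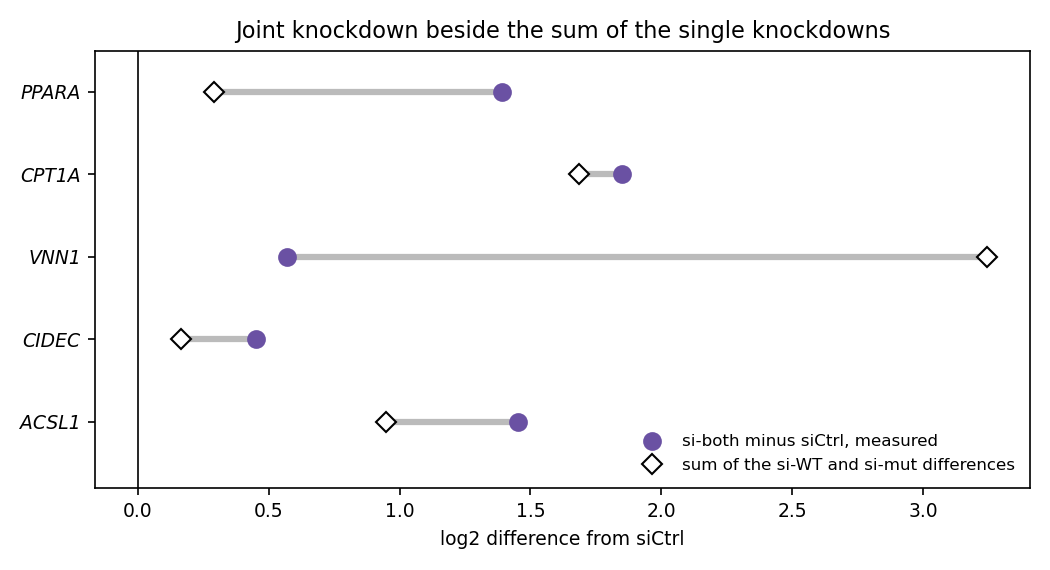
Log2 difference from siCtrl (horizontal axis) measured after si-both (filled) beside the sum of the si-WT and si-mut differences (open) for each gene. The measured value departs from the sum by 1.0997 for PPARA and by -2.67 for VNN1.

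Over the 12 arrays, which fall into 4 groups and share them, PPARA was most like CPT1A and ACSL1 among its 4 targets (Pearson r = 0.926 and 0.875) and less like CIDEC (0.795) and VNN1 (0.526). CPT1A and ACSL1 had r = 0.933, VNN1 and CIDEC 0.824, and VNN1 and ACSL1 0.282. Genes outside the 5 were then ranked by r, leaving out those with open reading frame, LOC, LINC, MIR or SNOR symbols. Among the genes ranked, those most like PPARA were the glutathione transferase GSTA1 (0.991), RNF114 (0.991) and the glycerol-3-phosphate dehydrogenase GPD1 (0.988). GPD1, for example, read 5.39, 5.47 and 5.66 after si-WT, 7.36, 7.27 and 7.16 after si-mut, 7.997, 7.75 and 7.98 after si-both, and 6.16, 6.23 and 6.23 after siCtrl. GSTA1 has a near-identical copy, so its signal may be shared. Most like CPT1A were the hepatic transcription factor ONECUT1 (0.995), the protease HABP2 (0.995) and DST (0.994), and most like ACSL1 were ACSM2B (0.983), TMEM87A (0.979) and TMEM14A (0.978). Most like CIDEC were TMEM45B (0.987), UNC93A (0.984) and ENPP3 (0.981), and most like VNN1 were PLXNB1 (0.968), STK40 (0.967) and INPP1 (0.963). These r values describe likeness and carry no test.

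The remaining genes of the pathway were taken from 7 lists of 151 genes, of which 87 were measured, and were tested in a limma fit across all 14884 genes with Benjamini-Hochberg adjustment. After si-WT 19 of the 87 fell and 4 rose, or 26.4%, where 10.2% of all genes passed the test (5.2% higher, 4.97% lower), and the median log2 difference was -0.05, against 0.01 over all genes. After si-mut 32 rose and 11 fell, or 49.4% against 25.6% of all genes (12% higher, 13.6% lower), with a median of 0.14 against 0.01. After si-both 41 rose and 16 fell, or 65.5% against 33.6% (15.5% higher, 18.1% lower), with a median of 0.22 against -0.01. Between si-mut and si-WT 43 were higher and 8 lower after si-mut, or 58.6% against 31% of all genes (14% higher, 17% lower), with a median of 0.29 against 0.0013. With dim genes left out (mean level below the 40th percentile), 32.9% of 76 pathway genes passed after si-WT, against 19.9% of 8930 genes, 57.9% against 43.8% after si-mut, and 75% against 53.8% after si-both. The 23 calls after si-WT dropped to 14 or 13 when siCtrl replicate 2 or 3 was left out, and to 12 or 14 when si-WT replicate 2 or 3 was.

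**Figure D4:**
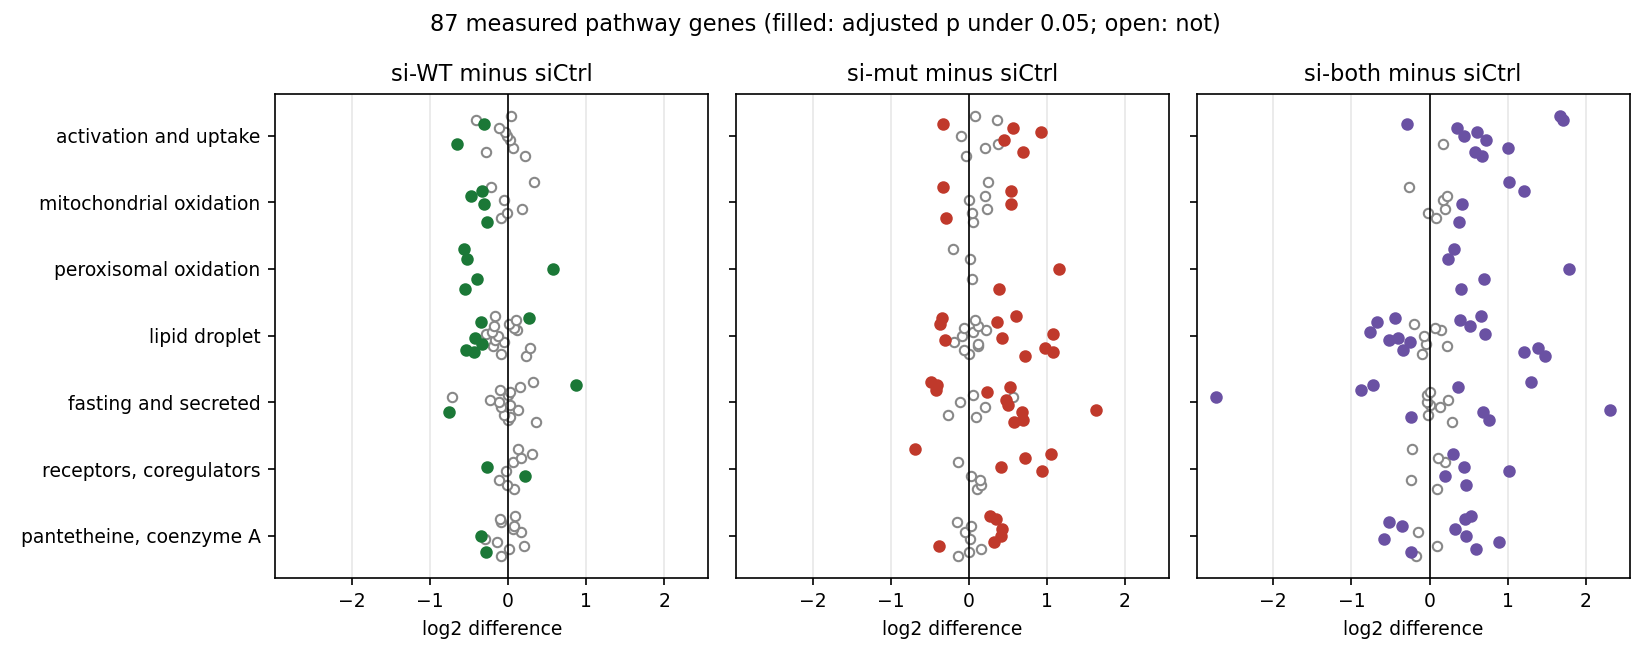
Log2 difference from siCtrl (horizontal axis) of the 87 measured pathway genes, by list (rows), for each of the 3 knockdowns. Filled points passed limma's test at an adjusted p under 0.05. After si-WT 4 of 5 peroxisomal genes lie at the left, and after si-both all 5 lie at the right.

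Of the receptors, PPARG and PPARD, the relatives of PPARA, took a pattern unlike that of PPARA. PPARG read 7.22, 7.37 and 7.51 after si-WT, 7.98, 8.21 and 8.14 after si-mut, 7.33, 7.21 and 7.55 after si-both, and 6.94, 7.14 and 7.10 after siCtrl. PPARD read 7.92, 8.05 and 8.12 after si-WT, 8.58, 8.65 and 8.55 after si-mut, 8.09, 8.03 and 7.83 after si-both, and 7.84, 7.91 and 7.87 after siCtrl. Both were highest on the si-mut arrays, whose values did not overlap any other group. After si-mut PPARG rose by 1.05 ± 0.11 and PPARD by 0.72 ± 0.08 on the log2 scale against siCtrl (SE; 3 arrays in each group; adjusted p = 7.98e-06 and 2.33e-05 by limma). After si-both they were lower than after si-mut by 0.75 ± 0.11 and 0.61 ± 0.08 (limma adjusted p = 0.000207 and 0.000141), where 22.2% of all genes were called, 10.6% higher and 11.6% lower, while PPARA was 0.50 ± 0.10 higher in that comparison. PPARG also passed against siCtrl after si-both, at 0.30 ± 0.11 (limma adjusted p = 0.0408), but the call was lost with arrays centred on their medians, with only the compared groups in the fit, and without any 1 of the siCtrl arrays, si-both replicate 1 or 3, si-WT replicate 2, si-mut replicate 3 or replicate 1 of both si-mut and si-both (limma adjusted p = 0.051 to 0.175).

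**Figure D5:**
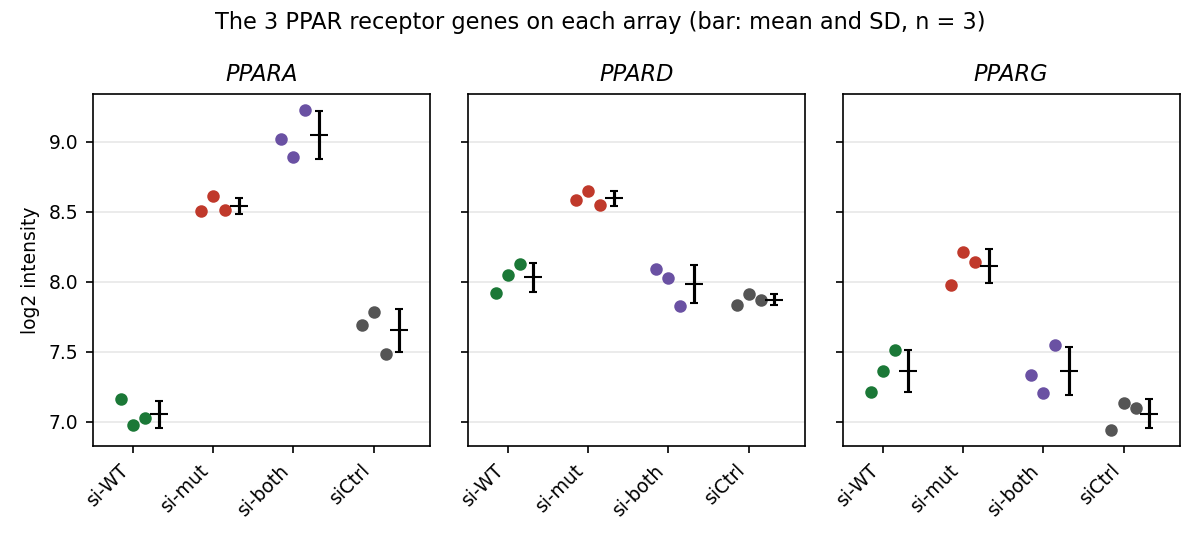
Log2 intensity (vertical axis) of PPARA, PPARD and PPARG on each of the 12 arrays, with the mean and SD of each group of 3. PPARA is highest after si-both (8.89 to 9.23), while PPARD and PPARG are highest after si-mut.

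The list of receptor partners and coregulators held 10 measured genes, of which 1 rose and 1 fell after si-WT, 4 rose and 1 fell after si-mut, and 5 rose and 0 fell after si-both. The shares that rose were 10%, 40% and 50% in that order, against 5.2%, 12% and 15.5% of all genes. The shares that fell were 10%, 10% and 0%, against 4.97%, 13.6% and 18.1%. The coactivator NCOA1 stood at a mean log2 level of 8.73 after si-mut and 8.81 after si-both, against 7.79 after siCtrl, higher by 0.94 ± 0.06 and 1.02 ± 0.06 (limma adjusted p = 2.68e-07 and 6.65e-08). The deacetylase SIRT1 fell by 0.69 ± 0.09 after si-mut (limma adjusted p = 7.15e-05). The retinoid X receptors were listed but are not analysed here.

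Of 11 measured genes of fatty acid uptake and activation, 0 rose and 2 fell after si-WT, 4 rose and 1 fell after si-mut, and 9 rose and 1 fell after si-both. These are shares of 0% higher after si-WT, 36.4% after si-mut and 81.8% after si-both, where 5.2%, 12% and 15.5% of all genes were higher. The shares that fell were 18.2%, 9.09% and 9.09% in that order, against 4.97%, 13.6% and 18.1% of all genes. The difference between the counts was not tested. Of the relatives of ACSL1, ACSL4, which prefers arachidonic acid, read 12.01, 11.99 and 11.96 after si-mut and 11.59, 11.70 and 11.73 after si-both, against 11.03, 11.11 and 11.05 after siCtrl. It was thus higher in both groups, but in the opposite order to ACSL1: by 0.93 ± 0.07 after si-mut and 0.61 ± 0.07 after si-both (limma adjusted p = 4.6e-07 and 8.65e-06), and lower after si-both than after si-mut by 0.32 ± 0.07 (limma adjusted p = 0.00373). ACSL5 rose by 0.57 ± 0.08 after si-mut and 0.35 ± 0.08 after si-both (limma adjusted p = 0.000157 and 0.004). The fatty acid transporter CD36 rose by 1.68 ± 0.16 after si-both, to 5.73, 5.13 and 5.94, against 3.77, 4.02 and 3.98 on the siCtrl arrays, near the floor (limma adjusted p = 2.35e-06). The medium-chain synthetase ACSM3 rose 3.26-fold after si-both (limma adjusted p = 3.58e-07).

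CPT1A leads into mitochondrial oxidation. Of 10 other measured genes of that list, 0 rose and 4 fell after si-WT, 2 rose and 2 fell after si-mut, and 4 rose and 0 fell after si-both. The shares that rose were 0%, 20% and 40% in that order, against 5.2%, 12% and 15.5% of all genes. The shares that fell were 40%, 20% and 0%, against 4.97%, 13.6% and 18.1%. ETFDH, which passes electrons from fatty acid oxidation to the respiratory chain, read 7.77, 7.76 and 7.61 after si-mut and 8.29, 8.34 and 8.50 after si-both, against 7.24, 7.01 and 7.26 after siCtrl, and rose by 0.54 ± 0.09 and 1.21 ± 0.09 (limma adjusted p = 0.000687 and 4.44e-07). MLYCD, which breaks down malonyl-CoA, the inhibitor of CPT1A, rose by 1.02 ± 0.11 after si-both (limma adjusted p = 8.04e-06). The carnitine acetyltransferase CRAT rose by 0.54 ± 0.09 after si-mut and 0.42 ± 0.09 after si-both (limma adjusted p = 0.000453 and 0.00215). ECI2 fell by 0.47 ± 0.08 after si-WT (limma adjusted p = 0.00214). The isoform CPT1C, known from brain, did not pass the test against siCtrl, with log2 differences of -0.01 for si-WT, 0.04 for si-mut and -0.02 for si-both (SE 0.10 each, limma adjusted p = 0.967, 0.826 and 0.884).

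The 5 measured genes of peroxisomal oxidation all passed the test after si-WT and after si-both. After si-WT 4 fell and 1 rose, after si-mut 2 rose and 0 fell, and after si-both 5 rose. Of all genes 5.2% rose and 4.97% fell after si-WT, 12% and 13.6% after si-mut, and 15.5% and 18.1% after si-both. The thiolase ACAA1 fell by 0.56 ± 0.08, the multifunctional enzyme HSD17B4 by 0.52 ± 0.08 and the peroxisome division factor PEX11A by 0.57 ± 0.11 after si-WT (limma adjusted p = 0.000734, 0.000984 and 0.00354). PEX11A rose by 0.31 ± 0.11 after si-both (limma adjusted p = 0.0345), but not without si-both replicate 3, siCtrl replicate 1 or 3, or replicate 1 of both si-mut and si-both (limma adjusted p = 0.0531 to 0.143). The exception after si-WT was CROT, the carnitine octanoyltransferase, which read 6.27, 6.27 and 6.18 after si-WT, 6.82, 6.91 and 6.72 after si-mut, and 7.30, 7.49 and 7.55 after si-both, against 5.64, 5.65 and 5.69 after siCtrl. It rose in all 3 comparisons, by 0.58, 1.16 and 1.79 (SE 0.08 each, limma adjusted p = 0.000456, 3.07e-07 and 4.05e-09).

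Lipid droplet genes moved in both directions. Of 21 measured, 1 rose and 5 fell after si-WT, 7 rose and 3 fell after si-mut, and 7 rose and 7 fell after si-both. The shares that rose were 4.76%, 33.3% and 33.3% in that order, against 5.2%, 12% and 15.5% of all genes. The shares that fell were 23.8%, 14.3% and 33.3%, against 4.97%, 13.6% and 18.1%. CIDEB, the relative of CIDEC that is common in hepatocytes, read 6.62, 6.17 and 6.43 after si-WT, 7.73, 8.09 and 7.94 after si-mut, and 8.20, 8.08 and 7.90 after si-both, against 6.73, 6.89 and 6.91 after siCtrl. It rose by 1.08 ± 0.12 after si-mut and 1.22 ± 0.12 after si-both (limma adjusted p = 2.33e-05 and 4.31e-06). After si-WT it fell by 0.44 ± 0.12 (limma adjusted p = 0.0369). That call was lost with the replicate number as a block, and without si-WT replicate 2 or 3 or any 1 siCtrl array (limma adjusted p = 0.0532 to 0.171). CIDEA, at mean levels of 4.95 to 5.04, close to the array medians, did not pass in any comparison with siCtrl (limma adjusted p = 0.564 to 0.991). ABHD5, the activator of the lipase PNPLA2, rose by 0.72 ± 0.11 after si-mut and 1.48 ± 0.11 after si-both, and DGAT2, an enzyme of triglyceride synthesis, by 0.97 ± 0.08 and 1.38 ± 0.08 (limma adjusted p = 0.000313, 3.75e-07, 2e-06 and 5.42e-08). PNPLA2 itself rose by 0.26 ± 0.07 after si-WT (limma adjusted p = 0.0396). It fell by 0.34 ± 0.07 after si-mut and 0.45 ± 0.07 after si-both (limma adjusted p = 0.00367 and 0.000329). LPIN1, the phosphatidate phosphatase lipin 1, rose by 1.07 ± 0.13 after si-mut (limma adjusted p = 3.62e-05), and LPIN2 fell by 0.76 ± 0.12 after si-both (limma adjusted p = 0.000234).

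Among 17 measured targets of the fasting response and secreted products, 1 rose and 1 fell after si-WT, 8 rose and 3 fell after si-mut, and 5 rose and 4 fell after si-both. The shares that rose were 5.88%, 47.1% and 29.4% in that order, against 5.2%, 12% and 15.5% of all genes. The shares that fell were 5.88%, 17.6% and 23.5%, against 4.97%, 13.6% and 18.1%. The si-WT shares were thus near those of all genes. CREB3L3, a liver transcription factor that acts with PPARα in fasting, read 10.55, 10.70 and 10.65 after si-mut and 11.23, 11.40 and 11.32 after si-both, against 9.04, 8.95 and 9.03 after siCtrl. It rose 3.09-fold and 4.96-fold (log2 differences 1.63 ± 0.07 and 2.31 ± 0.07, limma adjusted p = 1.21e-08 and 2.7e-10). The apolipoprotein gene APOC3, which PPARα agonists are known to lower, fell by 0.75 ± 0.13 after si-WT and rose by 0.68 ± 0.13 after si-mut and by 0.68 ± 0.13 after si-both (limma adjusted p = 0.00212, 0.00142 and 0.000942). TXNIP, a glucose-responsive inhibitor of thioredoxin, rose by 0.87 ± 0.13 after si-WT (limma adjusted p = 0.000916). It fell by 0.41 ± 0.13 after si-mut and 0.72 ± 0.13 after si-both (limma adjusted p = 0.0387 and 0.00078). For both falls only the main fit is shown. ANGPTL4, a secreted inhibitor of lipoprotein lipase, rose by 0.58 ± 0.16 after si-mut (limma adjusted p = 0.0182), but not without si-mut replicate 2 or siCtrl replicate 1 or 2 (adjusted p = 0.0539 to 0.0906). IGFBP1 stood at 7.96 ± 0.66 after si-both, against 10.69 ± 0.17 after siCtrl (SD, n = 3), lower by 2.73 ± 0.24 (limma adjusted p = 1.46e-06).

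The genes of pantetheine and coenzyme A, which surround VNN1, moved in both directions. Of 13 measured, 0 rose and 2 fell after si-WT, 5 rose and 1 fell after si-mut, and 6 rose and 4 fell after si-both. The shares that rose were 0%, 38.5% and 46.2% in that order, against 5.2%, 12% and 15.5% of all genes. The shares that fell were 15.4%, 7.69% and 30.8%, against 4.97%, 13.6% and 18.1%. VNN2, another pantetheinase gene, averaged 3.51 after si-mut and 3.77 after si-both, against 3.24 after siCtrl, near the floor in every group, and rose by 0.53 ± 0.07 after si-both (limma adjusted p = 7.68e-05). PANK1, a pantothenate kinase whose gene is a PPARα target, rose by 0.41 ± 0.08 after si-mut and 0.46 ± 0.08 after si-both (limma adjusted p = 0.00154 and 0.000411). NUDT7, a peroxisomal coenzyme A diphosphatase, rose by 0.90 ± 0.11 after si-both (limma adjusted p = 1.65e-05). The difference of VNN1 after si-mut, 3.48 ± 0.21, stood beside differences of these 13 genes that reached 0.43 at most in that comparison (PANK3, limma adjusted p = 0.000526). VNN1 was chosen with this level known, and its siCtrl level lies near the floor, so nothing is read from that contrast.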

How the data were processed

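RNA of 12 HepG2 samples, 3 per siRNA group, was measured on Affymetrix arrays. The authors deposited log2 intensities for 53617 probe sets. The submitters' processing notes name RMA and Affymetrix Expression Console 1.1. As a method, RMA corrects the background, makes the distributions of the arrays near equal and summarises probes, so a shift shared by most genes would be removed. The log2 scale was inferred from the values (1.63 to 14.08), genes were not centred, and the annotation build is not given in the sources used here. Groups and replicate numbers came from the sample titles.

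An annotation table of the platform named 16098 probe sets, all matched in the RefSeq gene table, and 37519 were not listed. For 779 genes with several probe sets the one with the highest mean was used, which left 14884 genes. The 4 group means were fitted with limma 3.58.1 in R 4.3.3 (lmFit and eBayes, 8 residual degrees of freedom), two-sided, with Benjamini-Hochberg adjustment over all genes within a comparison and a call at an adjusted p under 0.05. The test of si-both against si-mut was added after the data were seen. The 5 genes, the 7 pathway lists and the marker lists were chosen with earlier results of these data known. Named pathway genes are taken from up to 4 genes per list and comparison with the largest absolute difference among those that passed, with relatives of the 5 genes and the 3 genes most like each. PNPLA2 is given besides, because its activator is named, and only its main fit is shown. Of the steps, only the limma fit was tested on simulated data, for si-WT against siCtrl. Whether same-numbered arrays belong together is not settled. Correlations of their deviations from the group means were low, at -0.047 to 0.189, and no comparison had all 3 above 0.1. Single genes could still follow the replicate number, as NUDT8 of the coenzyme A list, which fell from replicate 1 to 3 in all 4 groups. The main fit held no pairing. The alternatives tried were median centring of arrays, quantile normalization once more, a filter on dim genes (mean level below the 40th percentile), averaging the probe sets of each gene, a trended prior, only the groups compared, a replicate block, and leaving out each array. Promoter sequences were searched in Python 3.11.15 and figures drawn with matplotlib 3.10.9.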

Additional observations from a re-analysis of the deposited data

How the results depend on the processing

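The 15 differences of the 5 genes from siCtrl kept their sign and moved by less than 1 SD in 297 of 297 recalculations. Many of these could not move a difference, such as leaving out an array of a group not compared or using a trended prior. Leaving out 1 of 3 arrays moves a group mean only in part. The count is therefore no measure of how stable the differences are. Leaving out 1 array at a time gave -0.68 to -0.53 for PPARA, -1.27 to -0.93 for CIDEC and -0.36 to -0.09 for VNN1 after si-WT, and 3.21 to 3.69 for VNN1 after si-mut. Leaving out 1 array gave 917 to 1616 called genes for si-WT against siCtrl (1513 with all arrays; the low values were 950 when siCtrl replicate 2 was left out, and 917 and 957 when si-WT replicate 2 or 3 was) and 12 to 24 called pathway genes (23 with all arrays). All other counts, for si-mut, si-both, si-mut against si-WT and si-both against si-mut, stayed within 1.5 times under every alternative run. With the replicate number as a block 1669, 4024 and 5206 genes and 24, 47 and 58 pathway genes were called for the si-WT, the si-mut and the si-both comparison. The labels give same-numbered arrays no more than a shared number. Under the block the si-WT calls of CIDEB and ACSL6 were lost (limma adjusted p = 0.0562 and 0.0553). Of the named pathway calls, 9 of 20 after si-WT, 23 of 27 after si-mut and 27 of 30 after si-both held under every alternative that gave a value. Signs that turned were those of CPT1C and CIDEA, which were not called. Leaving out 1 array gave CPT1C -0.077 to 0.0307 after si-WT, -0.0224 to 0.0854 after si-mut and -0.1402 to 0.056 after si-both, and CIDEA -0.042 to 0.0692 after si-mut and -0.2008 to 0.0023 after si-both. With replicate 1 of both si-mut and si-both left out, an alternative chosen after seeing the data, CPT1C was 0.0095 and CIDEA 0.0023 after si-both, and 23, 40 and 54 pathway genes were called for si-WT, for si-mut and for si-both. The filter on dim genes drops VNN1 and, of the named pathway genes, CIDEA, VNN2, CD36, ACOT12, TFEB and ACSL6, so it gives no value for them. Values near the array floor, as for VNN1, CIDEA, VNN2 and CD36, limit what the log2 differences show. The cause of these dependences was not tested.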
